A study of Rattus norvegicus with 30 samples.

Results

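The genes described here are 10 genes of the circadian clock measured in rat lung: Arntl, Npas2, Cry1, Nr1d1, Nr1d2, Dbp, Tef, Per1, Per2 and Per3. They were taken by symbol from the table of 22914 genes, and all 10 passed the filter on low counts that left 15934 genes to test. The clock is a loop of transcription in nearly every cell. ARNTL, also called BMAL1, pairs with CLOCK or its relative NPAS2 and activates genes through E-box sequences, among them the Per and Cry genes, whose proteins return to block that pair, and Nr1d1, Nr1d2 and Dbp. REV-ERB alpha and beta, the proteins of Nr1d1 and Nr1d2, repress Arntl and Npas2 at elements that the ROR activators share, so that Arntl and Dbp peak at opposite times of day, while DBP and TEF pass the rhythm on to other genes through D-box sequences. In lung the clock is known for its part in daily rhythms of inflammation, and glucocorticoid hormones can shift it through genes such as Per1.

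The 30 libraries stand for 30 male Sprague Dawley rats, 8 weeks old by the labels, 1 lung sample each and 3 rats in each of 10 groups. In the Sham arm the abdomen was opened and the pancreas only moved, and in the Con arm the biliopancreatic duct received sterile saline. The paper states that this saline caused mild pancreatitis. In the SAP, DEX and Emo arms the duct received 5.0% sodium taurocholate, which causes severe acute pancreatitis (SAP) and with it lung injury. DEX rats were then given dexamethasone, a synthetic glucocorticoid, by vein at 10 mg/kg. Emo rats were given emodin, an anthraquinone of rhubarb, into the stomach at 40 mg/kg by the protocol and at 10 mg/kg by the sample descriptions. Both drugs were given at 2 and 12 hours, so rats studied at 6 hours had had 1 dose. By the paper, groups without DEX received saline by vein, and groups without emodin received carboxymethylcellulose sodium into the stomach. All operations were under pentobarbital. Every rat was fasted for 12 hours before the operation and kept in cycles of 12 hours of light and dark. Lungs were taken at 6 or 24 hours, and the groups are named accordingly (SAP-24h). These time points are 18 hours apart and fall at different times of day if the operations were done at the same clock time. The clock time of operation and of sampling is not given in the sources used here. Within an arm, time since the operation and time of day therefore cannot be told apart. Nor is it given whether the arms matched in clock time, so differences between arms at the same hour may include time of day. Rats are numbered 1 to 3 within a group as in the labels, and the numbers carry no order.

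Libraries held between 16813949 (SAP-6h rat 3) and 34692306 (SAP-6h rat 2) reads on genes. By the paper's mapping summary, the share of uniquely mapped reads was higher in every Sham and Con library than in every SAP, DEX and Emo library. Comparisons with Sham or Con therefore carry this difference between libraries as well, and its part was not tested. Markers of lung epithelium such as Sftpc and Scgb1a1 were high in all libraries, with a summed level of 47000 to 88200 FPKM (fragments per kilobase of transcript and sequencing depth, a level per length of RNA). Markers of other cells varied between groups. The 8 neutrophil markers summed to 4430 to 16300 FPKM in SAP-24h, 198 to 9240 in Sham-24h and 101 to 953 in Con-24h, and 5 red cell markers summed to 6260 to 9500 FPKM in SAP-6h and 1180 to 2170 in SAP-24h. In whole lung, fewer cells of a type and less RNA per cell cannot be told apart. A gene is said here to be called where edgeR's quasi-likelihood test gave a p under 0.05 after adjustment by Benjamini and Hochberg over all genes tested, and only such genes are said to be up- or down-regulated. Positive log2 fold changes mean a higher level in the group named first, each with its standard error (SE).

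The promoters were searched for the sequences through which the loop is known to act. RefSeq windows on the build GRCr8, from 250 bases before to 50 after the start of a transcript, were found for 9 of the 10 genes. There were 10 windows in all, and 4 that hold the letters of such sequences are printed. Arntl is Bmal1 in RefSeq, and its window (chr1:176766078-176766377, plus strand) holds in capitals TAGGTCA, the core bound by REV-ERB and ROR proteins. The Per2 window (chr9:99496944-99497243, minus strand) holds a D-box and the E-box-like sequence CACGTT. One of 2 Nr1d1 windows (chr10:84229405-84229704, minus strand) and the Tef window (chr7:115206577-115206876, plus strand) each hold the E-box CACGTG.
Arntl: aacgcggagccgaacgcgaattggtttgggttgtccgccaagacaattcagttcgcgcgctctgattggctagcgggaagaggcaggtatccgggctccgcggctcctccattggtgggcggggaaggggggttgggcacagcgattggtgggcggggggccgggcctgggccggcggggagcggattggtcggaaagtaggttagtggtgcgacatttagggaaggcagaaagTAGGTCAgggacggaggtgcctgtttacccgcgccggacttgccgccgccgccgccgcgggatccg
Per2: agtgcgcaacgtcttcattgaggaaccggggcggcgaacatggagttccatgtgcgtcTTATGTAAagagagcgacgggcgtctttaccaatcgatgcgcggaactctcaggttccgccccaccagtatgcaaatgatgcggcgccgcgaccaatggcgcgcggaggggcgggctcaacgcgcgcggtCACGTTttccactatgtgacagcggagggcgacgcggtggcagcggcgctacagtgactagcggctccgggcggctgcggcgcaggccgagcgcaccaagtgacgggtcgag
Nr1d1: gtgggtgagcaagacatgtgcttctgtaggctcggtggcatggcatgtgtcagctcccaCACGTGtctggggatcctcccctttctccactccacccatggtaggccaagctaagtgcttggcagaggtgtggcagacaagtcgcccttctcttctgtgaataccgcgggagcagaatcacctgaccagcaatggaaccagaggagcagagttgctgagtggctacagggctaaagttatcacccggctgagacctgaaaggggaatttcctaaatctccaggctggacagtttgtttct
Tef: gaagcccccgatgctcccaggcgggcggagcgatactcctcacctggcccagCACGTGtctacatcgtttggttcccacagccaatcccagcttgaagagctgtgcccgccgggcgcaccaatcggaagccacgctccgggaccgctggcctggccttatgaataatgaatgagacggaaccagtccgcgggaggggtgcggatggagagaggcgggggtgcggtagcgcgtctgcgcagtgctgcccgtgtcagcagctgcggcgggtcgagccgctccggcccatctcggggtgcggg
Both strands were searched, and none of the printed matches overlap. Of all 33469 promoter windows of this length, CACGTG was found in 6.42%, CACGTT in 4.83%, the D-box TTANGTAA in 2.24% and TAGGTCA in 2.63%. The other Nr1d1 window held CACGTT on the opposite strand, and the windows of Per1, Per3, Npas2, Nr1d2 and Dbp held none of these 4 sequences, which says only that the letters are not in these windows. A match describes a sequence and does not show binding.

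Levels per length differed widely among the 10 genes. Dbp and Tef had mean levels of 42.8 and 41.7 FPKM over the 30 libraries, Nr1d1 and Per1 had 27.5 and 27.0, and Nr1d2 and Cry1 had 10.5 and 9.11. Per2 had a mean level of 6.07 FPKM, Arntl 4.59, Per3 3.44 and Npas2 1.27. From the lowest to the highest library Nr1d1 spanned 32.7-fold, Dbp 20.4-fold and Arntl 9.72-fold, while Per1 and Cry1 spanned 3.38-fold and Per2 3.21-fold. Much of this range lay between rats of the same group. The within-group SD of Nr1d1 on the log2 scale of depth-scaled counts (CPM) was 1.02, at percentile 98.5 among 12474 genes, against a median of 0.229 over those genes. Dbp followed with 0.834 (percentile 97.4) and Arntl with 0.672 (percentile 95.6), whereas Per1 with 0.251 was at percentile 57.3.

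**Figure D1:**
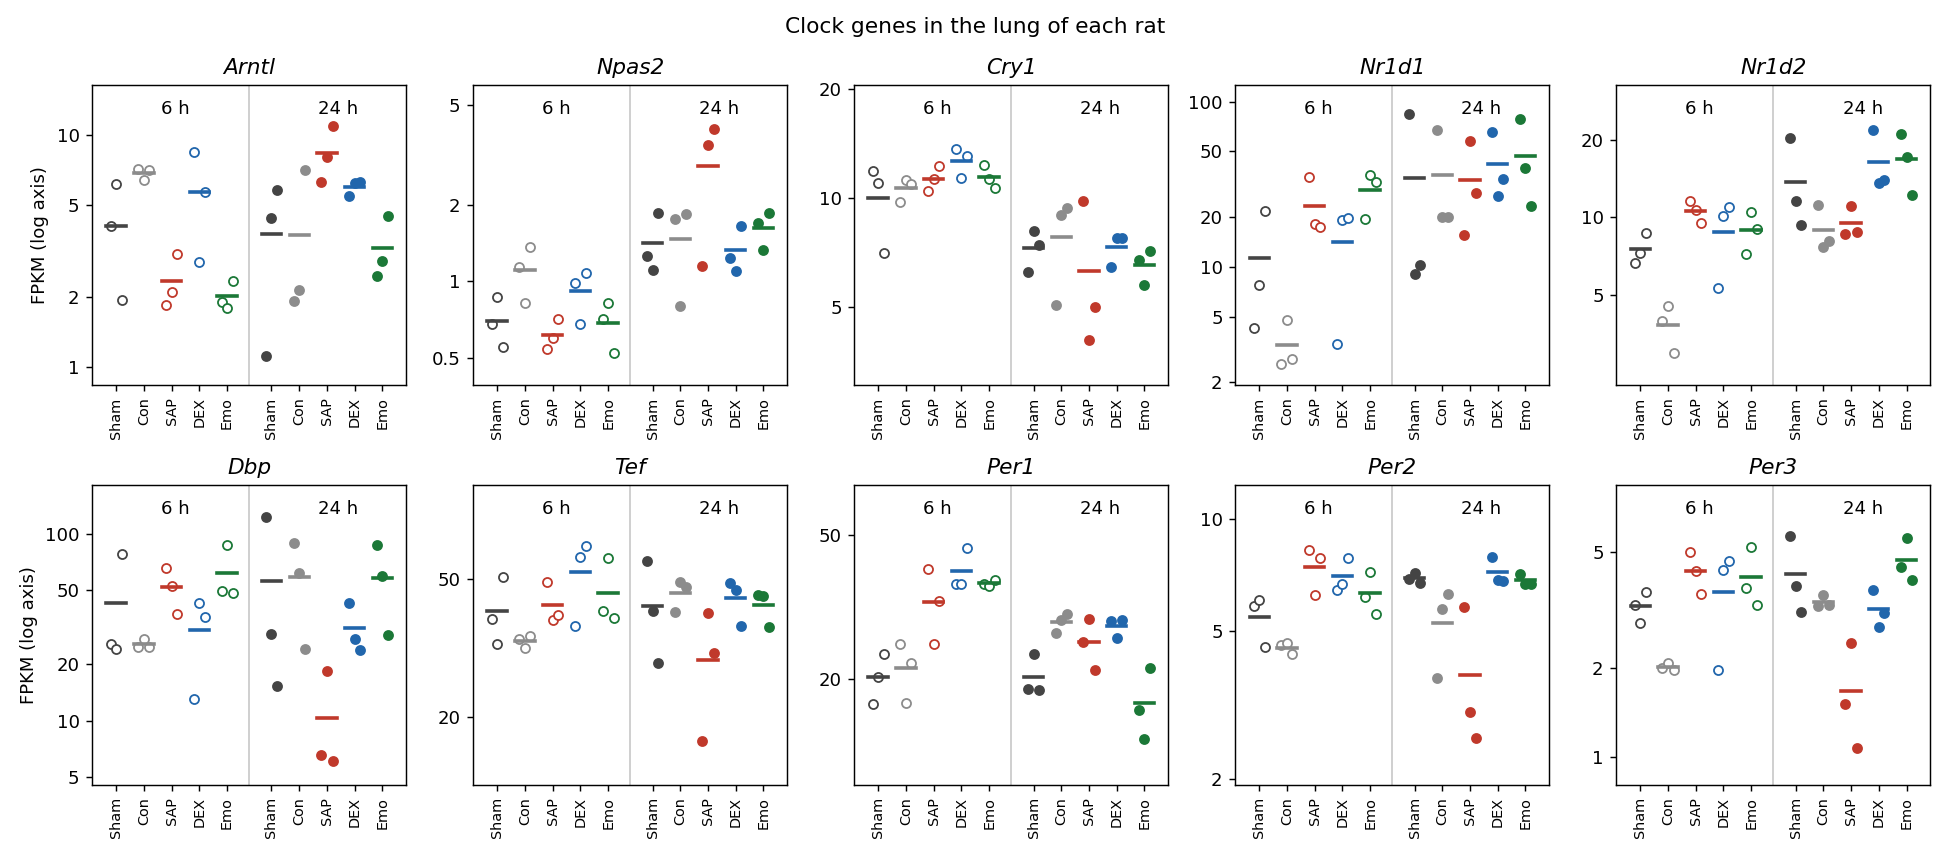
Level of each clock gene in the lung of each rat (y axis, FPKM on a log axis whose range differs between genes), by arm at 6 hours (open circles) and 24 hours (filled circles), with a line at the mean of the 3 rats. Nr1d1, Dbp and Arntl spread widely between rats of a group, while SAP-24h holds the highest library of Arntl and Npas2 and the lowest of Dbp, Tef, Per2, Per3 and Cry1.

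Arntl encodes the activator that all of the loop depends on. In Con-6h its level was 7.08, 6.39 and 7.03 FPKM in rats 1, 2 and 3, against 1.86, 2.11 and 3.08 in SAP-6h and 1.91, 1.79 and 2.34 in Emo-6h. The 3 rats of Con-6h were close to each other and all lay above those of SAP-6h and Emo-6h. In Sham-6h the values were 4.06, 6.13 and 1.94 FPKM, and in DEX-6h 8.44, 2.83 and 5.64, so these groups held both high and low rats. At 24 hours the order had changed. SAP-24h held 6.23, 7.97 and 10.9 FPKM, DEX-24h 5.42, 6.18 and 6.23, and Emo-24h 2.46, 2.87 and 4.47, with all rats of Emo-24h below all of DEX-24h and SAP-24h. Sham-24h held 1.12, 4.36 and 5.75 FPKM and Con-24h 1.93, 2.15 and 7.05, a spread that took in most of the other groups. By group means, Arntl ran from 2.01 FPKM in Emo-6h to 8.36 in SAP-24h, and of the 9 pairs of neighbours in that order only DEX-24h and Con-6h did not overlap.

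Npas2, which can take the place of CLOCK beside ARNTL, was the least abundant of the 10 genes. Its level was 0.54, 0.60 and 0.71 FPKM in SAP-6h and 1.15, 3.45 and 3.99 in SAP-24h, so every rat was higher at 24 hours, but rat 1 of SAP-24h was far below its 2 companions. In the other 8 groups it lay between 0.52 and 1.87 FPKM. Cry1, which encodes a repressor of ARNTL, was higher at 6 hours, with group means of 9.96 to 12.7 FPKM against 6.29 to 7.78 at 24 hours. The lowest Cry1 levels were 4.05 and 5.00 FPKM in SAP-24h rats 2 and 3, while rat 1 of that group held 9.82.

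Nr1d1, the gene of the repressor REV-ERB alpha, varied most. Its level was 2.58, 4.75 and 2.76 FPKM in Con-6h and 67.7, 20.2 and 19.98 in Con-24h, with no overlap between the time points. Sham-6h held 4.27, 7.80 and 21.95 FPKM and Sham-24h 84.3, 9.06 and 10.2, where rat 1 stood 9.3-fold above the lowest rat of its own group. In SAP, Nr1d1 was 34.9, 18.2 and 17.6 FPKM at 6 hours and 15.6, 57.5 and 28.1 at 24 hours, and these ranges overlapped. DEX rats held 3.41, 19.3 and 19.9 FPKM at 6 hours and 65.6, 26.9 and 34.0 at 24 hours. Emo rats held 19.5, 36.1 and 32.7 FPKM at 6 hours and 78.1, 39.5 and 23.3 at 24 hours. Nr1d1 overlaps Thra in the RefSeq annotation, a gene that is in the table with 15.8 to 45.9 FPKM, and whether reads were counted by strand is not given in the sources used here, so the values of Nr1d1 may hold reads of Thra. Nr1d2, its paralog, was steadier. Its level was 3.96, 4.51 and 2.97 FPKM in Con-6h, below every rat of all other groups, and its highest group means were in DEX-24h and Emo-24h.

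Dbp, the D-box activator that ARNTL drives directly, had its lowest and highest levels both at 24 hours. SAP-24h held the lowest, 6.55, 18.5 and 6.04 FPKM, against 65.7, 53.0 and 37.3 in SAP-6h. Sham-24h held 123, 29.1 and 15.4 FPKM, Con-24h 89.8, 61.7 and 24.3, and Emo-24h 87.6, 59.5 and 28.6. The 3 SAP-24h rats lay below all rats of Con-24h, DEX-24h and Emo-24h, but rat 2 of SAP-24h was above rat 3 of Sham-24h. DEX-24h held 42.9, 27.5 and 24.0 FPKM and DEX-6h 13.1, 42.6 and 36.1. Con-6h was narrow, at 24.9, 27.2 and 24.7 FPKM, whereas Sham-6h held 25.8, 24.2 and 78.2. Emo-6h held 49.5, 88.1 and 48.4 FPKM. The rats with the highest Dbp in Sham-6h, Sham-24h and Con-24h were also those with the lowest Arntl of their group. Tef, a relative of Dbp, kept within 3.67-fold over all libraries, with group means from 29.3 FPKM in SAP-24h to 52.4 in DEX-6h and no pair of neighbouring groups apart. Its log2 fold changes lay between -0.53 ± 0.25 (SAP-24h against Con-24h) and 0.52 ± 0.25 (DEX-24h against SAP-24h).

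Of the 3 Period genes, whose proteins repress the loop, Per2 and Per3 had their lowest group mean in SAP-24h and Per1 in Emo-24h. Per1 was 36.6, 36.5 and 45.9 FPKM in DEX-6h and 36.5, 36.1 and 37.5 in Emo-6h, above all 3 rats of Sham-6h (17.0, 20.2 and 23.4). In SAP-6h it was 40.3, 24.9 and 32.9 FPKM, also above Sham-6h. At 24 hours Emo-24h held 16.4, 13.6 and 21.4 FPKM, below all rats of DEX-24h (28.9, 25.98 and 29.1) and overlapping SAP-24h only at its top (25.3, 29.2 and 21.1). Per3 was 5.01, 4.30 and 3.58 FPKM in SAP-6h and 1.51, 2.44 and 1.07 in SAP-24h, while Sham-24h held 5.65, 3.82 and 3.12 and Emo-24h 4.45, 5.56 and 4.01. The SAP-24h rats were therefore below all rats of Sham-24h and Emo-24h. Per2 was 5.80, 3.03 and 2.57 FPKM in SAP-24h against 6.88, 7.14 and 6.74 in Sham-24h, 7.89, 6.85 and 6.81 in DEX-24h and 7.11, 6.69 and 6.70 in Emo-24h. All 3 SAP-24h rats lay below those 3 groups, while Con-24h (3.73, 5.73 and 6.26) overlapped SAP-24h.

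The first comparison asked how the clock genes differed between the 2 time points. Averaged over the 5 arms, 5 of the 10 genes were called. Nr1d1 (log2 fold change 1.57 ± 0.35), Npas2 (1.11 ± 0.16) and Nr1d2 (0.78 ± 0.12) were up-regulated at 24 hours, and Cry1 (-0.63 ± 0.11) and Per1 (-0.28 ± 0.09) were down-regulated. In this contrast 48.2% of all genes were called, so 5 of 10 is close to the background. All 5 calls held when any 1 library was left out. The 5 red cell markers tested were all lower at 24 hours in the same contrast, and 1 of 8 neutrophil and 1 of 6 epithelial markers were lower. Of 12 glucocorticoid target genes, 6 were lower and 1 was higher (median -0.324). Their part in these differences was not tested. Among the rats given no taurocholate (the mean of Sham and Con), Nr1d1 and Nr1d2 were up-regulated at 24 hours. Their log2 fold changes were 2.53 ± 0.57 and 1.08 ± 0.19, against a background of 2.89% of genes called. Nr1d1 lost this call without Sham-24h rat 1 (log2 fold change 1.64) or Con-6h rat 3, and neither gene was called when the 4 groups were fitted alone. Of 8 neutrophil markers 0 were called in this contrast by edgeR and 5 had an unadjusted p under 0.05, with a median of -1.27 (in Con alone 0 and 6, with a median of -2.28). Their part was not tested.

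**Figure D2:**
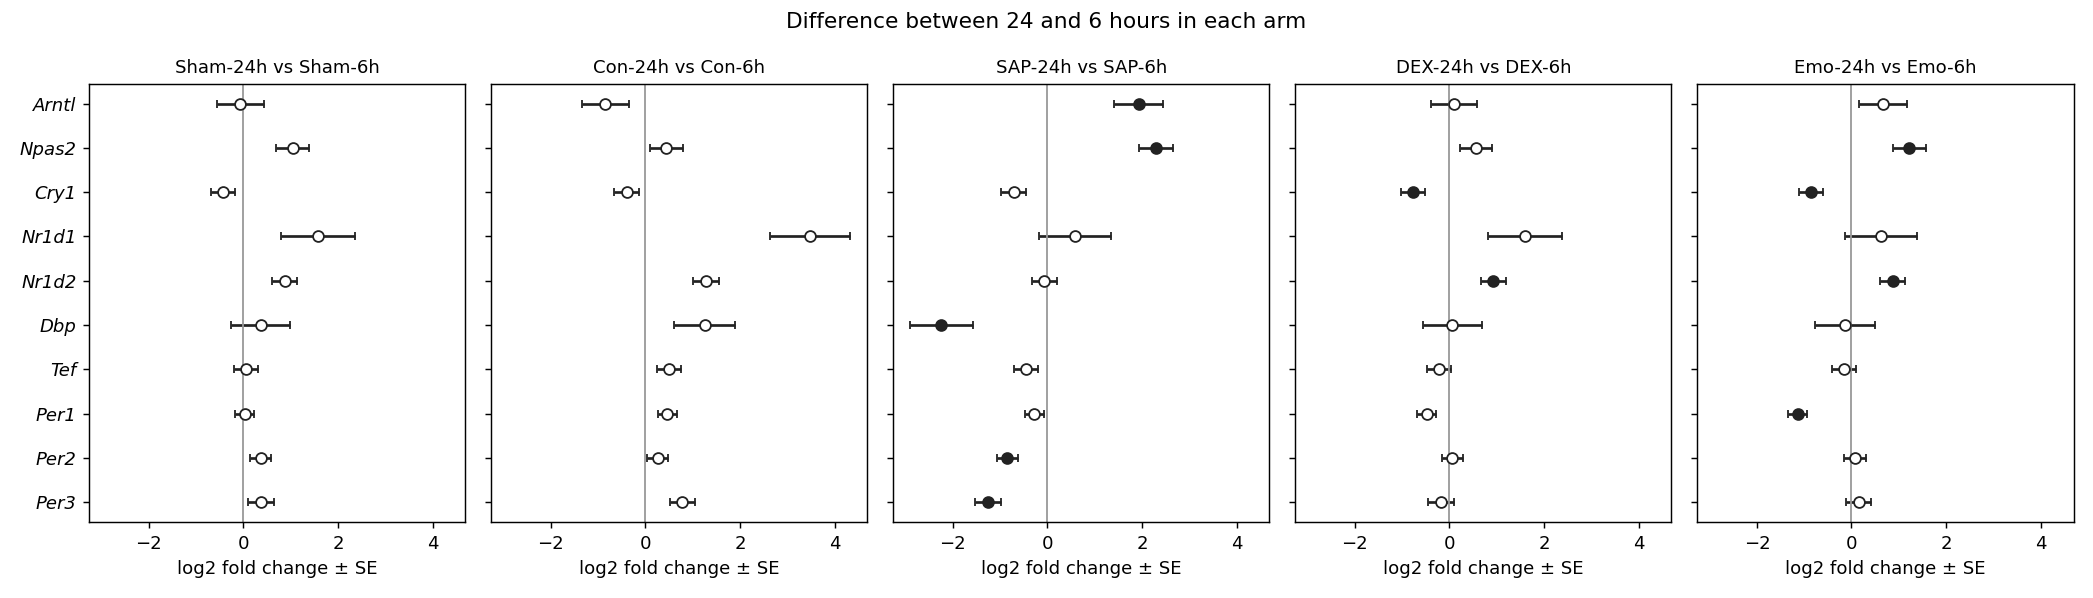
Log2 fold change of each clock gene between 24 and 6 hours (x axis, ± SE) in each of the 5 arms, with filled circles for genes called by edgeR's quasi-likelihood test. In SAP the called genes are Dbp, Per2 and Per3 below 0 and Arntl and Npas2 above 0, while the only called genes in DEX and Emo are Cry1, Nr1d2, Npas2 and Per1.

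The lists of called genes were not the same in the single arms, which by itself does not test a difference between arms. In SAP, 5 genes were called at 24 against 6 hours, against a background of 6.01%. Npas2 (2.30 ± 0.36, adjusted p = 0.00212) and Arntl (1.93 ± 0.51, adjusted p = 0.0293) were up-regulated. Dbp (-2.24 ± 0.66, adjusted p = 0.0439), Per3 (-1.26 ± 0.28, adjusted p = 0.0107) and Per2 (-0.85 ± 0.22, adjusted p = 0.0293) were down-regulated, in edgeR's test over all genes. The count was 1 without SAP-6h rat 1, a fit in which fewer of all genes were called too. Only the call of Npas2 held without any 1 library. Arntl was not called without any 1 of the SAP-6h rats or SAP-24h rat 3 (log2 fold changes 1.73 to 2.16 over the 6 fits), and Dbp not without any 1 of the SAP-6h rats or SAP-24h rat 1 or 3 (-2.92 to -1.96). Per2 was not called without SAP-6h rat 1 or 3 or SAP-24h rat 2 or 3 (-1.35 to -0.61), and Per3 not without SAP-6h rat 1 or SAP-24h rat 3 (-1.60 to -1.01). With the 2 groups fitted alone, Per2 (adjusted p = 0.259 by edgeR), Per3 (adjusted p = 0.109) and Dbp (adjusted p = 0.0677) were not called, nor was Dbp without the filter on low counts (adjusted p = 0.0506). Beside these, 4 of 5 red cell markers were lower in SAP-24h than in SAP-6h and 0 of 8 neutrophil markers were called by edgeR, with 0 at an unadjusted p under 0.05. Their part was not tested.

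In Emo, 4 of the 10 genes were called, close to the background of 34.1%. Npas2 (1.22 ± 0.35) and Nr1d2 (0.87 ± 0.27) were up-regulated at 24 hours, and Per1 (-1.14 ± 0.20, adjusted p = 0.000237 by edgeR) and Cry1 (-0.85 ± 0.26) were down-regulated. Nr1d2 was not called without Emo-6h rat 1 or Emo-24h rat 1 (0.70 to 1.03), nor Cry1 without Emo-6h rat 1 or Emo-24h rat 2 (-0.96 to -0.76). In the same comparison 4 of 5 red cell markers were lower (median -3.39), as were 1 of 6 epithelial markers and 7 of 12 glucocorticoid target genes (median -1.01). Their part was not tested. In DEX, Nr1d2 was up-regulated (0.93 ± 0.27) and Cry1 down-regulated (-0.78 ± 0.26). These 2 of 10 genes are below the background of 25.9%. Nr1d2 was not called without DEX-6h rat 1 or DEX-24h rat 1 (0.67 to 1.07), and Cry1 only when all rats or all but DEX-6h rat 2 were fitted (-0.84 to -0.69). With the 2 groups fitted alone Nr1d2 was not called (0.93, adjusted p = 0.0504 by edgeR), and 1 of the 2 calls was shared with the full model. In DEX over time 1 of 8 neutrophil markers was lower, and of 12 glucocorticoid target genes 2 were higher and 3 lower. Their part was not tested. In Sham no gene of the 10 was called, where edgeR called 0.992% of all genes. Of the 10, 2 were at an unadjusted p under 0.05, as were 20.4% of all genes, and DESeq2 called 1, and 5.36% of all genes. In Con none was called, where edgeR called 0.0126% of all genes. Of the 10, 4 were at an unadjusted p under 0.05 (10.5% of all genes) and DESeq2 called 2 (0.998% of all genes). In Con, Nr1d1 had a log2 fold change of 3.48 ± 0.85 (adjusted p = 0.116 by edgeR) and Nr1d2 of 1.28 ± 0.27 (adjusted p = 0.0906).

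At 6 hours the arms were compared with each other, with rats of the drug arms after 1 dose. Per1 was up-regulated in DEX-6h against Sham-6h (1.01 ± 0.20, adjusted p = 0.0029 by edgeR) and in Emo-6h against Sham-6h (0.90 ± 0.20, adjusted p = 0.0177), the only clock gene of the 10 called in either comparison, where 9.75% and 3.26% of all genes were called. For DEX-6h, 1 of 10 is close to the background of 9.75%. The 2 comparisons share the Sham-6h rats. The DEX call held without any 1 rat, while the emodin call was lost without Sham-6h rat 1 or 2 or Emo-6h rat 1 or 3 (0.79 to 1.04) and with the 2 groups fitted alone (adjusted p = 0.216 by edgeR). Per1 in SAP-6h against Sham-6h had a log2 fold change of 0.75 ± 0.20 (adjusted p = 0.106). None of the 10 genes was called in that comparison, against a background of 0.27%. Of the 10, 2 were at an unadjusted p under 0.05 (13.1% of all genes) and DESeq2 called 1 (2.01%). Against Con-6h, Nr1d2 was up-regulated in SAP-6h (1.55 ± 0.27, adjusted p = 0.0124 by edgeR), with a background of 0.207%. That call was lost without Con-6h rat 1 or 3 or SAP-6h rat 1 (1.40 to 1.65), and 7 of the 10 genes had an unadjusted p under 0.05 there, as did 10.4% of all genes. Arntl (-1.48 ± 0.51), Nr1d1 (2.91 ± 0.83) and Per3 (1.16 ± 0.27) were among them and were not called.

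No clock gene was called between either drug arm and SAP at 6 hours. In DEX-6h against SAP-6h none of the 10 genes was called by edgeR or DESeq2, with 1, Arntl (1.27 ± 0.50), at an unadjusted p under 0.05 (12.1% of all genes) and a background of 0.979%. In Emo-6h against SAP-6h none was called by edgeR or DESeq2 and none had an unadjusted p under 0.05 (13.5% of all genes did), with a background of 0.0314%. Per1, for example, was 0.15 ± 0.20 higher on the log2 scale in Emo-6h. In Emo-6h against DEX-6h none was called, against a background of 2.88%. Of the 10, 1 was at an unadjusted p under 0.05 (Arntl, -1.49 ± 0.51), as were 17.3% of all genes, and DESeq2 called 1 (5.45% of all genes). In Sham-6h against Con-6h none was called by either tool, with 3 at an unadjusted p under 0.05 (8.61% of all genes), and 0% of all genes were called.

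SAP was compared with both control arms at 24 hours. Against Sham-24h, 4 genes were called with a background of 12.4%. Npas2 was up-regulated (1.12 ± 0.34, adjusted p = 0.0343), and Dbp (-2.28 ± 0.66, adjusted p = 0.0265), Per3 (-1.19 ± 0.27, adjusted p = 0.00805) and Per2 (-0.71 ± 0.22, adjusted p = 0.0388) were down-regulated in edgeR's test. Arntl was 1.26 ± 0.50 higher and was not called (adjusted p = 0.0958). DESeq2 called 5 of the 10 genes, 2 higher and 3 lower, and 17.1% of all genes. Sham-24h rat 1, which had the highest Dbp, Nr1d1 and Per3 and the lowest Arntl of all 30 rats, weighed on this comparison. Without it none of the 10 genes was called and the log2 fold change of Dbp was -1.01. That fit called 974 genes in all, against 1979 with all rats. Dbp was also not called without SAP-24h rat 1 or 3, Npas2 not without Sham-24h rat 2 or SAP-24h rat 2 or 3 (0.83 to 1.50), and Per2 only with all rats or without SAP-24h rat 1 (-1.20 to -0.47). Per2 also lost its call with RLE scaling (adjusted p = 0.05 by edgeR) and without the filter on low counts (adjusted p = 0.0536). Per3 lost its call only without Sham-24h rat 1 (-1.51 to -0.94 over the 6 fits). With the 2 groups fitted alone, none of the 10 genes was called, and 3 genes were called in all. Of 8 neutrophil markers 0 were called by edgeR in this comparison and 3 had an unadjusted p under 0.05. Their median log2 fold change was 1.75. Of 6 epithelial markers 2 were higher (median 0.487), and of 12 glucocorticoid target genes 1 was. The part of these genes was not tested.

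Against Con-24h, 3 of the 10 genes were called, close to the background of 22.1%: Dbp (-2.39 ± 0.66) and Per3 (-0.88 ± 0.27) were down-regulated in SAP-24h and Npas2 (1.06 ± 0.34) was up-regulated. All 8 neutrophil markers were higher in SAP-24h than in Con-24h and 1 of 6 epithelial markers was lower, and their part in these differences was not tested. Without SAP-24h rat 3 no clock gene was called. Dbp was not called without Con-24h rat 1 or SAP-24h rat 1 either (-3.07 to -1.94), Npas2 not without Con-24h rat 2 or SAP-24h rat 2 (0.77 to 1.43), and Per3 not without Con-24h rat 1 or 2 or SAP-24h rat 1 (-1.22 to -0.63). With the 2 groups fitted alone none was called. The control arms themselves, Sham-24h and Con-24h, had none of the 10 genes called by edgeR or DESeq2, 2 at an unadjusted p under 0.05 (27.0% of all genes) and a background of 9.85%.

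Both drugs were then compared with SAP-24h. In DEX-24h, Per2 was up-regulated (0.81 ± 0.22, adjusted p = 0.0289 by edgeR) and Npas2 down-regulated (-1.17 ± 0.34, adjusted p = 0.0372), with a background of 7.71%. Both calls were lost without SAP-24h rat 2 or 3 or any 1 DEX-24h rat (Per2 0.57 to 1.32 and Npas2 -1.53 to -0.88). In Emo-24h, Dbp (2.33 ± 0.66, adjusted p = 0.0323) and Per3 (1.32 ± 0.28, adjusted p = 0.00686) were up-regulated and Per1 (-0.71 ± 0.20, adjusted p = 0.0302) was down-regulated by edgeR's test, with a background of 8.59%. Only the call of Per3 held without any 1 library. Dbp was not called without SAP-24h rat 1 or 3 or Emo-24h rat 1 or 2 (1.94 to 3.00), and Per1 not without SAP-24h rat 1 or 2 or Emo-24h rat 1 or 2 (-0.95 to -0.58). DESeq2 called 5 genes here and 13.4% of all genes, and with the 2 groups fitted alone none was called in either comparison. In DEX-24h, Dbp differed from SAP-24h by 1.52 ± 0.64 (adjusted p = 0.155 by edgeR) and Per3 by 0.84 ± 0.27 (adjusted p = 0.0619), and Per1 by 0.06 ± 0.20. In Emo-24h, Per2 differed by 0.67 ± 0.22 (adjusted p = 0.063) and Npas2 by -0.93 ± 0.34 (adjusted p = 0.0838). Both comparisons share the SAP-24h rats. Of 8 neutrophil markers 1 was lower in DEX-24h, with 4 at an unadjusted p under 0.05 and a median log2 fold change of -1.83, and in Emo-24h 0 were called by edgeR, with 1 at an unadjusted p under 0.05 and a median log2 fold change of -1.04. Of 6 epithelial markers 1 was lower in Emo-24h (median -0.52). Their part was not tested.

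**Figure D3:**
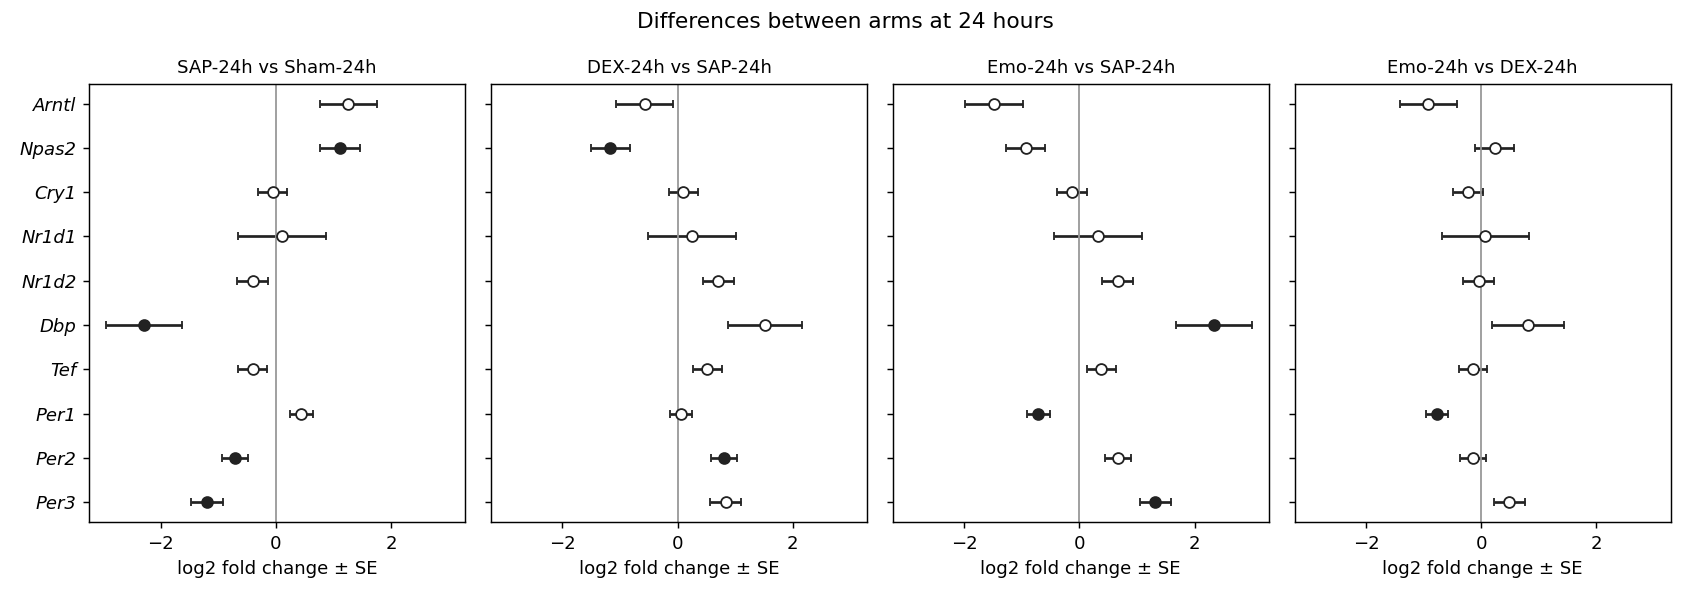
Log2 fold change of each clock gene at 24 hours (x axis, ± SE) in SAP against Sham, DEX against SAP, emodin against SAP and emodin against DEX, with filled circles for genes called by edgeR's quasi-likelihood test. Dbp and Per3 lie below 0 in SAP against Sham, where both are called. They lie above 0 in both drug arms against SAP, called with emodin and not with DEX. Per1 is the only called gene between the drugs.

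Between the drugs only Per1 was called. It was down-regulated in Emo-24h against DEX-24h (-0.77 ± 0.20, adjusted p = 0.0166 by edgeR), with a background of 8.89%, and the call was lost without DEX-24h rat 3 or Emo-24h rat 1 or 2 (-1.004 to -0.66). Of 6 epithelial markers 1 was lower in Emo-24h than in DEX-24h (median -0.535), and its part was not tested. The other 9 clock genes were not called. The log2 difference was 0.81 ± 0.63 for Dbp, -0.92 ± 0.50 for Arntl and 0.49 ± 0.27 for Per3. No clock gene was called between either drug arm and Sham-24h. In DEX-24h none was called by either tool, with 1, Per1 (0.50 ± 0.20), at an unadjusted p under 0.05 (19.9% of all genes) and a background of 6.97%. In Emo-24h none was called by either tool and none had an unadjusted p under 0.05, where 3.0% of all genes did and 0% were called. Dbp differed there by 0.05 ± 0.63 and Per3 by 0.13 ± 0.27, and the SE of Dbp leaves room for a difference in either direction.

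Interaction terms compared the effects at 24 hours with those at 6 hours. For SAP against Sham none of the 10 genes was called, with a background of 0.0314%. Of the 10, 6 were at an unadjusted p under 0.05 (12.6% of all genes) and DESeq2 called 2 (1.02%). The interaction was -2.61 ± 0.90 for Dbp, 2.00 ± 0.71 for Arntl and -1.64 ± 0.38 for Per3. For DEX against SAP none was called, with a background of 0.169%. Of the 10, 6 were at an unadjusted p under 0.05 (13.6% of all genes) and DESeq2 called 1 (1.63%). For emodin against SAP, Per3 was called (1.41 ± 0.38, adjusted p = 0.0442 by edgeR), with a background of 3.57%, and this call was lost in 9 of 12 fits without 1 library (1.16 to 1.73). It held only without SAP-6h rat 3, Emo-6h rat 2 or SAP-24h rat 2. Per1 had an interaction of -0.86 ± 0.28 with emodin and was not called (adjusted p = 0.0724).

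How the genes moved together from rat to rat was followed at each time point over 15 libraries, on log2(FPKM + 1), as 18 relations with Arntl. Dbp was lowest where Arntl was highest, with Pearson's r of -0.914 at 6 hours and -0.892 at 24 hours. Each p was 1e-05, the smallest that 100000 permutations can give, and adjusted over the 18 relations 9e-05. All permutations ran over the 15 libraries of a time point across arms, so differences between arms enter each p. Spearman's rho was -0.943 and -0.92 (p = 2e-05 in both, adjusted 0.00018, permutation test). Without the 2 libraries farthest from the median of Arntl, r was -0.89 and -0.838. Within groups, after each group's mean was taken off, r was -0.883 and -0.863, so rats of the same arm and time differed in the same way. Here and below, r within groups carries no test.

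**Figure D4:**
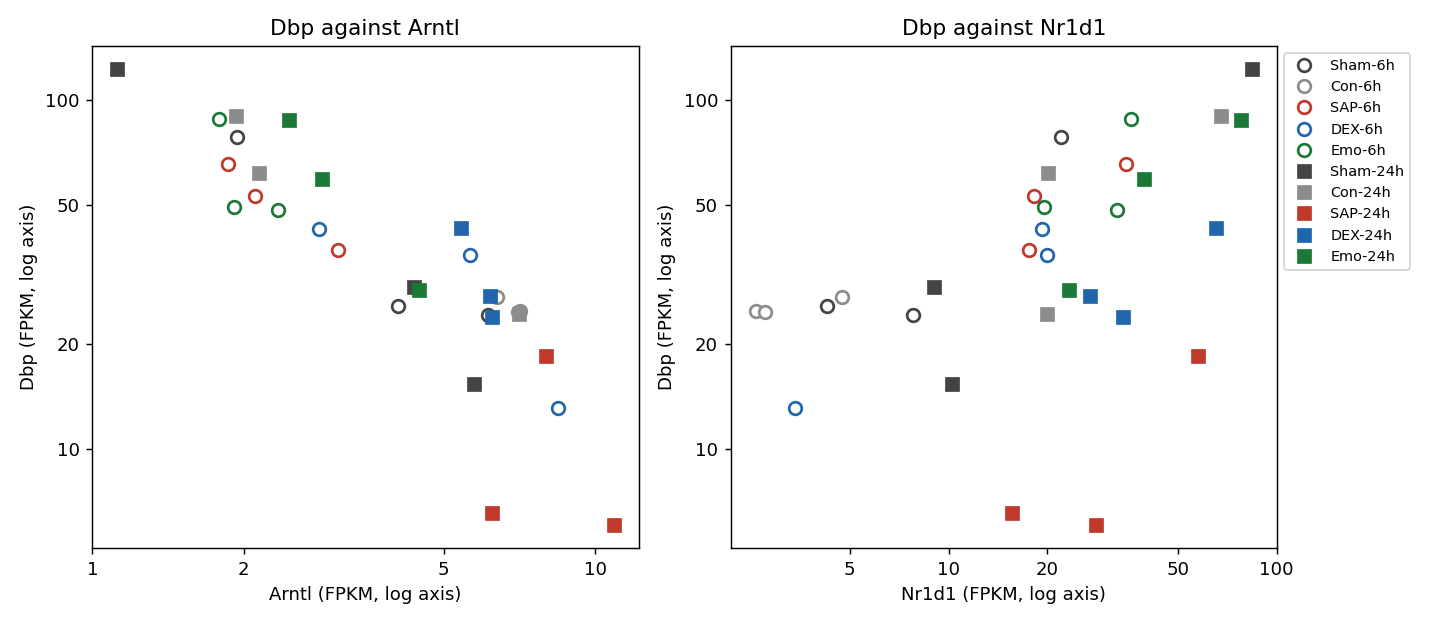
Dbp against Arntl (left) and Dbp against Nr1d1 (right) in each of the 30 libraries, in FPKM on log axes, with open circles for 6 hours, filled squares for 24 hours and a color for each arm. Dbp falls as Arntl rises in both sets of libraries, while on the right the 3 SAP-24h libraries lie apart, low in Dbp for their level of Nr1d1.

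Per3 was also inverse to Arntl at both time points, with r of -0.802 at 6 hours (permutation p = 0.00069, adjusted 0.00248, rho -0.84 with p = 0.00018) and -0.751 at 24 hours (p = 0.00111, adjusted 0.00333, rho -0.774 with p = 0.00116). Within groups r was -0.689 and -0.584, and without the 2 farthest libraries -0.711 and -0.767. For the 2 REV-ERB genes at 6 hours, r with Arntl was -0.866 for Nr1d1 (permutation p = 0.0002, adjusted 0.0012, rho -0.875 with p = 8e-05) and -0.739 for Nr1d2 (p = 0.00166, adjusted 0.00427, rho -0.689 with p = 0.00605). Without the 2 farthest libraries these were -0.813 and -0.671, and within groups -0.718 and -0.601. At 24 hours the relation was not called for either, with r of -0.408 for Nr1d1 (permutation p = 0.131, adjusted 0.196, rho -0.365 with p = 0.181) and -0.422 for Nr1d2 (p = 0.119, adjusted 0.194, rho -0.382 with p = 0.158). Within groups r was -0.676 and -0.692 there, and without the 2 farthest libraries -0.1 and -0.337. The difference between the time points was not tested.

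Npas2 was higher where Arntl was higher at 6 hours (r 0.803, permutation p = 0.00029, adjusted 0.0013, rho 0.709 with p = 0.00418), also within groups (0.601) and without the 2 farthest libraries (0.765). At 24 hours r was 0.553 (permutation p = 0.0315, adjusted 0.0708, rho 0.429 with p = 0.111). Tef at 6 hours had r of -0.509 (permutation p = 0.0553, adjusted 0.111) and rho of -0.654 (p = 0.00985, adjusted 0.0222), and r was -0.734 within groups. For the other relations, those of Per1, Per2 and Cry1 at both time points and of Tef at 24 hours, r lay between -0.479 and 0.356 and the adjusted permutation p between 0.123 and 0.998. Within groups, r for Cry1 at 6 hours was 0.731, against 0.313 over all 15 libraries, and for Per2 it was 0.295 against -0.352. In log2 units of FPKM, the ratio of Dbp to Nr1d1 ran from 0.567 to 3.27 at 6 hours and from -2.22 to 1.68 at 24 hours.

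Over all 30 libraries, other genes followed the same lines. The 10 members were left out of this ranking. Among other genes with a mean of at least 1 FPKM and a symbol, the 5 most like Dbp on log2(FPKM + 1) were Rasl10a (r 0.876), Hlf (0.782), Plxdc2 (0.761), Tmem9 (0.758) and Cldn11 (0.745). Hlf encodes the third D-box activator beside DBP and TEF. The 5 most like Arntl were Lonrf3 (0.733), Rbm33 (0.698), Zfp106 (0.69), Arhgef12 (0.684) and Oxsr1 (0.677). Among the members themselves, Per3 had r of 0.827 and Tef of 0.726 with Dbp. These values describe likeness over libraries that share groups, and they carry no test.

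The rest of the clock was read from a list of 21 other genes, of which 20 were in the table and 19 were tested. Averaged over the arms, 11 of the 19 differed between the time points where 48.2% of all genes did. Clock (0.60 ± 0.09), the partner of ARNTL, and Rora (0.35 ± 0.12), an activator of Arntl, were among those up-regulated at 24 hours. Among the down-regulated genes were Cry2 (-0.31 ± 0.05), Nfil3 (-0.69 ± 0.18), Timeless (-0.27 ± 0.08), the kinase gene Csnk1d (-0.24 ± 0.04), Btrc (-0.12 ± 0.04), Usp2 (-0.55 ± 0.10) and Tspan4 (-0.61 ± 0.17). In SAP-24h against Sham-24h, 5 were called, where 12.4% of all genes were. Nfil3, whose protein E4BP4 competes with DBP at D-boxes, was up-regulated by 2.27 ± 0.41 (adjusted p = 0.00203 by edgeR), and Csnk1d by 0.36 ± 0.09. Hlf (-1.18 ± 0.23), Wee1 (-0.96 ± 0.18), a cell cycle gene driven by the clock, and Cry2 (-0.40 ± 0.12) were down-regulated. Against Con-24h, 7 of the 19 were called in SAP-24h, 4 higher and 3 lower, where 22.1% of all genes were. The control arms also differed in this list, with 3 of the 19 higher in Sham-24h than in Con-24h, where 9.85% of all genes were called.

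The drug comparisons at 24 hours called some of the same list. In Emo-24h against SAP-24h, Nfil3 (-2.11 ± 0.41) and Csnk1d (-0.39 ± 0.09) were down-regulated and Hlf (0.91 ± 0.23) and Wee1 (0.65 ± 0.17) up-regulated, 4 of 19 genes where 8.59% of all genes were called. In DEX-24h against SAP-24h, Nfil3 (-1.41 ± 0.40) was down-regulated and Cry2 (0.54 ± 0.12) and Wee1 (0.88 ± 0.17) were up-regulated, 3 of 19 where 7.71% of all genes were called. Between Emo-24h and DEX-24h edgeR called 0 of the 19 and 8.89% of all genes, with 5 at an unadjusted p under 0.05 (21.2% of all genes). At 6 hours it called 0 of the 19 and 0.979% of all genes in DEX-6h against SAP-6h, with 6 at an unadjusted p under 0.05 (12.1% of all genes). In Emo-6h against SAP-6h it called 0 and 0.0314% of all genes, with 1 at an unadjusted p under 0.05 (13.5% of all genes). In DEX-6h against Sham-6h, 5 of the 19 were up-regulated, where 9.75% of all genes were called, and in Emo-6h against DEX-6h 1 was down-regulated, Wee1 (-0.74 ± 0.17), where 2.88% were. As every comparison with SAP-24h uses the same 3 SAP rats, opposite signs against Sham-24h and in the drug arms are not independent.

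Because Per1 is a known direct target of the glucocorticoid receptor, 12 other glucocorticoid target genes were read beside it. In DEX-6h against Sham-6h, where Per1 was up-regulated and 9.75% of all genes were called, 6 of the 12 were up-regulated too, among them Fkbp5 (2.01 ± 0.44), Errfi1 (2.07 ± 0.35) and Pdk4 (1.69 ± 0.35). These rats differ in both pancreatitis and drug. Against SAP-6h, 1 of the 12, Sgk1, was called in DEX-6h (1.02 ± 0.20), with 7 at an unadjusted p under 0.05 (12.1% of all genes), a background of 0.979% and a median of 0.724, and Per1 differed by 0.26 ± 0.20 without a call. In SAP-6h against Sham-6h, without a drug, 0 of the 12 were called by edgeR, with 3 at an unadjusted p under 0.05 (13.1% of all genes) and a background of 0.27%. Their median was 0.487, beside 0.75 ± 0.20 for Per1, which was not called. In Emo-6h against Sham-6h, where Per1 was also called, 0 of the 12 were called by edgeR, with 2 at an unadjusted p under 0.05 (22.6% of all genes), and the median of the 12 was 0.374 against -0.00645 over all genes. Against SAP-24h, Sgk1 was the only 1 of the 12 up-regulated in DEX-24h (1.92 ± 0.21), about the background of 7.71%. There 4 of the 12 had an unadjusted p under 0.05 (23.1% of all genes), with a median of 0.447. In Emo-24h against SAP-24h 3 targets, Glul, Errfi1 and Mt2A, were down-regulated, where 8.59% of all genes were called. Of the 12, 9 had an unadjusted p under 0.05 there (26.3% of all genes), with a median of -0.887 against 0.0155 over all genes. Between Emo-24h and DEX-24h, where Per1 was down-regulated, 10 of the 12 were down-regulated, where 8.89% of all genes were called, with a median of -1.31 against 0.00693 over all genes. The largest of these was Fkbp5 (-2.19 ± 0.44), and Sgk1 differed by -1.57 ± 0.21 (adjusted p = 8.87e-05 by edgeR).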

How the data were processed

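Gene expression was measured by paired-end RNA-seq of directional libraries from rat lung. The authors clipped the reads and mapped them with TopHat2 to rat_ensembl_v6, allowing 2 mismatches, and kept uniquely mapped reads. The deposited counts are whole reads per gene, without normalization, and the deposited FPKM values are rounded to 2 decimals. The counting program and its strand setting are not given in the sources used here. Levels are the FPKM. Differences were computed from the counts with edgeR 4.0.16 (limma 3.58.1) in R 4.3.3. Genes were filtered by filterByExpr at a minimum of 10 counts, and of 15 in total, and scaled by TMM. One quasi-likelihood fit took all 30 libraries and 10 groups, which left 20 residual degrees of freedom, with Benjamini-Hochberg adjustment over 15934 genes in each of 26 comparisons. A call was an adjusted p under 0.05 without a fold minimum, whereas the study used a 2-fold minimum. The steps were tested on simulated counts for SAP-24h vs Sham-24h: 83 of 99 genes changed 4-fold and 52 of 98 changed 2-fold were recovered over 15934 genes, with 5 unchanged ones called. Correlations used log2(FPKM + 1) and 100000 permutations, two-sided, in scipy 1.17.1 (Python 3.11.15). Tables were handled in pandas 2.3.3 and figures drawn in matplotlib 3.10.9. All 10 genes were examined in every comparison, and the text gives each that was called, with selected others. Of the other clock genes, those called in the mean over arms or in a drug comparison were named, except some that are not reported here. The genes, lists and tests were chosen with earlier results of these data known. Alternatives were RLE scaling, DESeq2 1.42.0, no filter on low counts, a 2-fold minimum, the compared groups alone, a replicate block, each library left out, and for correlations a pseudocount of 0.1. Sequences came from RefSeq (GRCr8). The sources do not say that rats of a group were operated on separate days, so the p-values measure the spread between these rats.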

Additional observations from a re-analysis of the deposited data

Results flagged for a closer look

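The effect of emodin on Per3 was called as different between the time points, and this call was not stable. In edgeR's quasi-likelihood test of the interaction, the log2 fold change of Per3 in Emo against SAP was 1.41 larger at 24 than at 6 hours (adjusted p = 0.0442). The call was lost in 9 of 12 fits without 1 library, with the 4 groups fitted alone (adjusted p = 0.13) and without the filter on low counts (adjusted p = 0.0557). Groups of 3 rats were not tested for a sample far from the others.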

How the results depend on the processing

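None of the 35 called values changed sign under any alternative. With DESeq2 in place of edgeR, the number of the 10 genes called was 1 in Sham over time, 2 in Con over time, 1 in SAP-6h vs Sham-6h, 3 in SAP-6h vs Con-6h, 1 in Emo-6h vs DEX-6h, 5 in Emo-24h vs SAP-24h, and 2, 1 and 2 in the interactions of time with SAP, DEX and emodin. It was 5 in SAP-24h vs Sham-24h, 4 in SAP-24h vs Con-24h and 3 in DEX-24h vs SAP-24h. With a 2-fold minimum it was 0 in DEX over time, 2 in Emo over time, 0 in Emo-6h vs Sham-6h, 1 in DEX-24h vs SAP-24h, 0 in Emo-24h vs DEX-24h and 2 in the mean over 5 arms. With the compared groups alone it was 2 in SAP over time, 2 in SAP-6h vs Con-6h, and 0 in Emo-6h vs Sham-6h, Emo-24h vs SAP-24h, DEX-24h vs SAP-24h, SAP-24h vs Con-24h, SAP-24h vs Sham-24h, the mean of Sham and Con and the interaction with emodin. That interaction also had 0 without a filter on low counts. Over these comparisons the genes called were counted as a share of the 15934 genes of the main fit. That share was 0.998 to 13.4% with DESeq2, 0.477 to 9.41% with the 2-fold minimum and 0 to 1.85% with the groups alone. It was 2.39% without the filter, where genes of low counts were tested as well, so the share of genes tested was smaller. The cause of these differences was not tested, beyond the fewer rats of the smaller fits. Of 35 calls, 34 held with RLE scaling, 35 with DESeq2, 32 without the filter, 21 with the 2-fold minimum and 10 of the 30 refitted with the groups alone. A replicate block kept 35 of 35 calls. Rats with the same number in other groups had a median correlation of -0.00648 (-0.363 to 0.359 over 135 pairs), so the numbers do not pair the rats. With 1 library left out, 11 of the 35 calls held in every fit. The number of genes called ranged over these fits from 1 to 5 in SAP over time, 0 to 2 in DEX over time, 2 to 4 in Emo over time, 0 to 3 in SAP-24h vs Sham-24h, 0 to 4 in SAP-24h vs Con-24h, 0 to 2 in DEX-24h vs SAP-24h, 1 to 3 in Emo-24h vs SAP-24h, 0 to 1 in Emo-24h vs DEX-24h, Emo-6h vs Sham-6h and SAP-6h vs Con-6h, 1 to 2 in the mean of Sham and Con, and 0 to 1, 0 to 2 and 0 to 1 in the interactions with SAP, DEX and emodin. The number of all genes called also differed between the fits without 1 library. It was lower than with all rats in SAP over time without SAP-6h rat 1. It was higher in Emo-6h vs Sham-6h without Sham-6h rat 3. Whether the clock genes changed more than other genes in these fits was not tested. Without a filter on the mean level, 4 of the 5 genes most like Dbp remained. A fit with 3 rats a group recovered 52 of 98 simulated 2-fold changes, so smaller differences may be missed.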
